A study of Homo sapiens with 4 samples.

Results

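The 5 long noncoding RNAs MALAT1, NEAT1, NORAD, GAS5 and SNHG1 were examined for binding by LARP4 in HEK293 cells. MALAT1 and NEAT1 are nuclear, NORAD is cytoplasmic, and the introns of GAS5 and SNHG1 carry small nucleolar RNAs (snoRNAs). Each was taken as a fixed window of the hg19 genome, and its members were all clusters overlapping that window by at least 1 base on the strand of the RNA. The windows were chromosome 11, 65265200 to 65274000 on the plus strand for MALAT1 and 65190200 to 65213100 on the plus strand for NEAT1. They were chromosome 20, 34633500 to 34638900 on the minus strand for NORAD, chromosome 1, 173833000 to 173837300 on the minus strand for GAS5, and chromosome 11, 62619400 to 62623500 on the minus strand for SNHG1. The 5 windows held 175 of the 171755 clusters of replicate 1 and 188 of the 191899 clusters of replicate 2.

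The samples were 2 replicates of LARP4 eCLIP and 2 replicates of size-matched input, all from HEK293, a human embryonic kidney cell line, with no treatment other than ultraviolet crosslinking at 254 nm and 400 mJ/cm2. In eCLIP, ultraviolet light joins a protein to the RNA it touches, an antibody (here against LARP4) recovers the pair, and the fragments are sequenced. The input is RNA of the same gel sizes without the antibody. A cluster is an interval where recovered fragments pile up, and its value here is the authors' log2 fold of eCLIP over input, so that 0 is the input level.

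LARP4 is a La-related protein of the cytoplasm that binds poly(A) and the poly(A)-binding protein and protects mRNA tails from shortening. MALAT1 is retained in nuclear speckles, and its mature 3′ end is closed by a triple helix in place of a poly(A) tail. NEAT1 builds paraspeckles and is made as a short polyadenylated form and a long form that ends, like MALAT1, without a tail. NORAD is a polyadenylated cytoplasmic RNA that captures Pumilio proteins. GAS5 and SNHG1 are spliced, and known as RNAs of the 5′ terminal oligopyrimidine (TOP) class. Their exons encode no known protein, while their introns are processed into snoRNAs that guide ribosomal RNA modification.

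The strand of the clusters was checked, and the genes lying inside each RNA were looked up by name. Neither step tests whether a window holds the RNA it is named for. No cluster lay on the opposite strand of any window, in either replicate. RefSeq, on another build (GRCh38.p14), places 11 snoRNA genes inside GAS5, from SNORD74 at the 5′ end to SNORD81 at the 3′ end, and 9 inside SNHG1, from SNORD25 to SNORD22. It places the MALAT1-associated small cytoplasmic RNA (MASCRNA) inside MALAT1, MIR612 inside NEAT1 and nothing inside NORAD. No hg19 annotation or genome was used here, so clusters were not assigned to exons, introns or snoRNAs.

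The bases around the RefSeq starts are shown for GAS5 and SNHG1, because both carried the lowest folds described below, and for NORAD as a contrast. Each line holds 30 bases before the start and the first 50 transcribed bases, 5′ to 3′, from RefSeq on GRCh38.p14. Capitals mark runs of 5 or more T after the start. The positions are chr1:173868996-173869075 for GAS5, chr11:62855836-62855915 for SNHG1 and chr20:36050911-36050990 for NORAD, all on the minus strand.
GAS5: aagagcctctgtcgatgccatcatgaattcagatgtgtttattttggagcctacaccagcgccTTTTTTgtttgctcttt
SNHG1: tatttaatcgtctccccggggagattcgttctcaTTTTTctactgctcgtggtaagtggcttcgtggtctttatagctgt
NORAD: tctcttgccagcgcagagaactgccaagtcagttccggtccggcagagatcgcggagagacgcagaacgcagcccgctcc

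The motif TTTTT was found in the first 50 transcribed bases of SNHG1, from base 5, and of GAS5, from base 34, in the second case as part of 6 T in a row. It was absent from those of NORAD and of both MALAT1 starts in the table. Of all 35116 RefSeq start windows, 3.72% held the motif there, and 2.98% held it on the reverse strand, as none of the GAS5, SNHG1, NORAD and MALAT1 starts did. NEAT1 was not searched. C and T made up 66.0% of the first 50 bases in GAS5 and 64.0% in SNHG1, against 44.0% in NORAD and 48.0% and 34.0% at the MALAT1 starts. The share over all RefSeq starts was not computed. The transcribed bases opened with agatgtg in GAS5 and with ctca in SNHG1. Neither printed start thus opened with a long unbroken run of C and T, although the TOP class is named for one. The printed positions were not converted to hg19, so whether these starts lie inside the windows was not checked. The letters may therefore not describe the 5′ ends of the RNAs measured here, and other starts of GAS5 and SNHG1 were not searched. A match describes letters and not a binding site.

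None of the 5 long noncoding RNAs held an enriched cluster, meaning one at 8-fold or more over input (log2 fold 3) whose −log10 p is also 3 or more. The count was 0 of 175 in replicate 1, which allows a share of up to 1.71%, against 5.01% of all clusters of that replicate. It was 0 of 188 in replicate 2, which allows up to 1.60%, against 5.50% of all clusters. These limits take 3 counts as the most that a count of 0 allows, cover counting error only and treat neighbouring clusters as independent, which they are not. The highest single log2 folds were 2.23 in replicate 1, in NEAT1, and 2.59 in replicate 2, in NORAD. The authors' combined list of 7153 regions held none in the windows. Most members were clusters of MALAT1 and NEAT1. Singly, in replicates 1 and 2, the limit was 3.53% and 3.61% in NEAT1 and 5.45% and 5.36% in MALAT1. The MALAT1 limit thus lay above the 5.01% of all clusters in replicate 1. The RNAs with few clusters set only loose limits, from 13.6% in replicate 2 of GAS5 to 37.5% in replicate 1 of NORAD.

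Long runs of clusters often held at least 1 enriched cluster. A run is a set of clusters of both replicates on 1 strand with gaps of at most 5 kb, and each of the 5 windows formed exactly 1 run. Of the runs with at least 50 clusters in replicate 1, 109 of 192 (56.8%) had an enriched cluster, and in replicate 2 the count was 142 of 227 (62.6%). Both sets of runs include MALAT1, with 55 and 56 clusters, and NEAT1, with 85 and 83, each with 0 enriched. This background was chosen after the values were seen, and no test was made on it.

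All 5 RNAs had a median log2 fold below that of all clusters, in both replicates. NEAT1 had medians of 1.11 in replicate 1 and 0.79 in replicate 2, NORAD 0.56 and 1.27, MALAT1 −0.04 and −0.59, GAS5 −0.83 and −0.06, and SNHG1 −2.36 and −2.49, against 1.28 and 1.30 over all clusters. The gap was smallest for NORAD in replicate 2, at 0.03. Over all members together the median was 0.44 and 0.14. The read depth behind a cluster is unknown. How the authors scaled eCLIP against input is also unknown here, and the sign of a fold depends on that scaling.

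Over the 2 replicates the order was NEAT1 with a mean of medians of 0.95 ± 0.23, NORAD with 0.91 ± 0.50, MALAT1 with −0.31 ± 0.39, GAS5 with −0.45 ± 0.55 and SNHG1 with −2.42 ± 0.10 (SD, n = 2 each). The replicate values of neighbours in this order overlapped for NEAT1 and NORAD and for MALAT1 and GAS5. They did not overlap in the other 8 of 10 pairs. With 2 values against 2, the two-sided exact permutation test cannot go below p = 0.333, the value for each of those 8 pairs (0.417 after Benjamini-Hochberg adjustment over the 10 pairs). The RNAs of a pair were measured in the same 2 libraries, so the difference was also taken within each replicate, as an analysis added after seeing the data. It had the same sign in both replicates in the same 8 pairs, as their lack of overlap already required. Only the 2 overlapping pairs were free to differ, and in both the sign changed between replicates. NEAT1 stood above MALAT1 by 1.15 in replicate 1 and 1.38 in replicate 2, and GAS5 above SNHG1 by 1.52 and 2.43, while NEAT1 minus NORAD was 0.55 and −0.48. The exact sign-flip test of 2 paired differences cannot go below p = 0.5, so neither test can pass a threshold of 0.05 at this number of replicates.

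**Figure D1:**
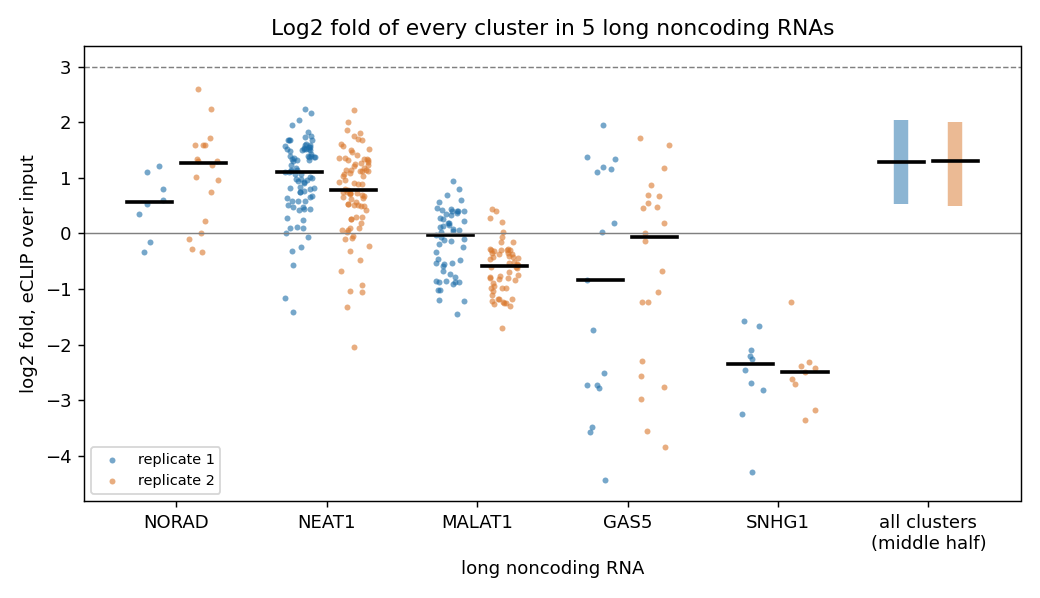
Log2 fold of eCLIP over input (vertical axis) for each cluster of NORAD, NEAT1, MALAT1, GAS5 and SNHG1, with replicate 1 left of replicate 2, beside the range from the lower to the upper quartile of all clusters. Points are clusters, black bars are medians, the solid line is the input level and the dashed line is a log2 fold of 3, which no cluster of the 5 RNAs reached.

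Every cluster of SNHG1 lay below input. All 10 clusters of replicate 1 and all 9 of replicate 2 had negative log2 folds, against 11.6% and 11.2% of all clusters. The values ran from −4.29 to −1.58 in replicate 1 and from −3.35 to −1.24 in replicate 2, so the median cluster was at 0.195 and 0.177 of its input level. In 8 of 10 and 8 of 9 clusters the log2 fold was −2 or lower, against 0.579% and 0.503% of all clusters. Because the authors' −log10 p is 0 at every cluster with a negative fold, it carries no test of depletion.

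The low values of SNHG1 recurred at the same positions. A partner in replicate 2 was found for 8 of the 10 clusters of replicate 1, and 7 of these pairs were at −2 or lower in both. The lowest pair lay at chromosome 11, 62621138 to 62621203, with log2 folds of −3.25 and −3.35, a mean of −3.30 ± 0.07 (SD, n = 2). The next were at 62622522 to 62622553, with −2.69 and −2.63, and at 62622778 to 62622812, with −2.45 and −3.17. The highest pair, at 62622096 to 62622149, still had −1.58 and −1.24. Short pieces lay side by side near the 3′ side, where the pairs starting at 62620415 and 62620435 had means of −2.38 ± 0.17 and −2.30 ± 0.12.

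The lowest single cluster of SNHG1, at 62620818 to 62620837 in replicate 1 with −4.29, had no partner in replicate 2. The clusters covered 303 and 300 bases, or 7.39% and 7.32% of the window, and had median widths of 26 and 22 bases, against 51 and 50 over all clusters. Among the 5201 runs with at least 8 clusters in each replicate, 1 had lower medians than SNHG1 in both replicates. That run, on the minus strand of chromosome 14 from 20811236 to 20811521, had −3.10 and −2.74, and was picked out after its values were seen.

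GAS5 held clusters far below input beside clusters above it. In replicate 1, 9 of 17 clusters were below input, down to −4.44, and 8 were above, up to 1.94. In replicate 2, 11 of 22 were below, down to −3.84, and 11 were above, up to 1.71. Read from the 5′ to the 3′ end, the sign changed 11 times in each replicate, so low and high clusters were interleaved. Values of −2 or lower made up 7 of 17 (41.2%) and 6 of 22 (27.3%) clusters, against 0.579% and 0.503% of all clusters.

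The lowest place in GAS5 was chromosome 1, 173835803 to 173835828, with log2 folds of −4.44 and −3.84, or −4.14 ± 0.43 (SD, n = 2). The clusters nearest the 5′ end, at 173836823 to 173836870 and 173836871 to 173836879, had −3.52 ± 0.05 and −3.56 ± 0.01, with 1 replicate 2 cluster as partner of both. The highest place was near the 3′ end, at 173833084 to 173833185, where the log2 folds were 1.94 and 1.71 (1.83 ± 0.16) and the −log10 p was 7.0 and 5.8. Its neighbour at 173833186 to 173833213 had 1.34 and 0.87, and the cluster at 173833395 to 173833431 had 1.17 and 0.67. The last of these stood below the medians of all clusters, 1.28 and 1.30, and had a −log10 p of 1.67 and 0.56.

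Between these clusters above input, the cluster of GAS5 at 173833304 to 173833331 stood at −2.77 in replicate 1, and its partner at −2.97 in replicate 2. The change from above to below to above input took place within 348 bases in replicate 1 and 331 in replicate 2. Of 17 replicate 1 clusters 16 overlapped one of replicate 2, of which 7 pairs were at −2 or lower in both and 6 pairs were above input in both. Under a looser rule, 2-fold or more with the same −log10 p of 3 or more, GAS5 had 1 of 17 and 2 of 22 clusters (5.88% and 9.09%), against 14.0% and 13.7% of all clusters.

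NORAD, the cytoplasmic Pumilio-binding RNA, had few clusters, with folds on both sides of input. In replicate 1, 6 of 8 clusters were above input, from 0.34 to 1.21, and in replicate 2, 15 of 18 were, up to 2.59, against 88.4% and 88.8% of all clusters. Its medians of 0.56 and 1.27 stood for 1.48-fold and 2.40-fold over input. At the 7 replicate 1 clusters with a partner the median difference was 0.10 (replicate 2 minus replicate 1), while the 11 replicate 2 clusters without a partner had a median of 1.33, and the 7 with one 0.96.

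The highest pairs of NORAD lay at the 5′ end, at chromosome 20, 34638687 to 34638758, with 1.21 and 1.31, and 34638759 to 34638850, with 1.11 and 1.31, both with the same replicate 2 cluster. The third was at 34636161 to 34636219, with 0.60 and 1.23. The lowest pair, at 34636629 to 34636688, had −0.33 and −0.34. The cluster with the highest fold, 2.59 at 34635893 to 34635948, was present in replicate 2 alone, with a −log10 p of 3.08. Under the 2-fold rule NORAD had 1 of 8 and 3 of 18 clusters (12.5% and 16.7%), near the 14.0% and 13.7% of all clusters.

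**Figure D2:**
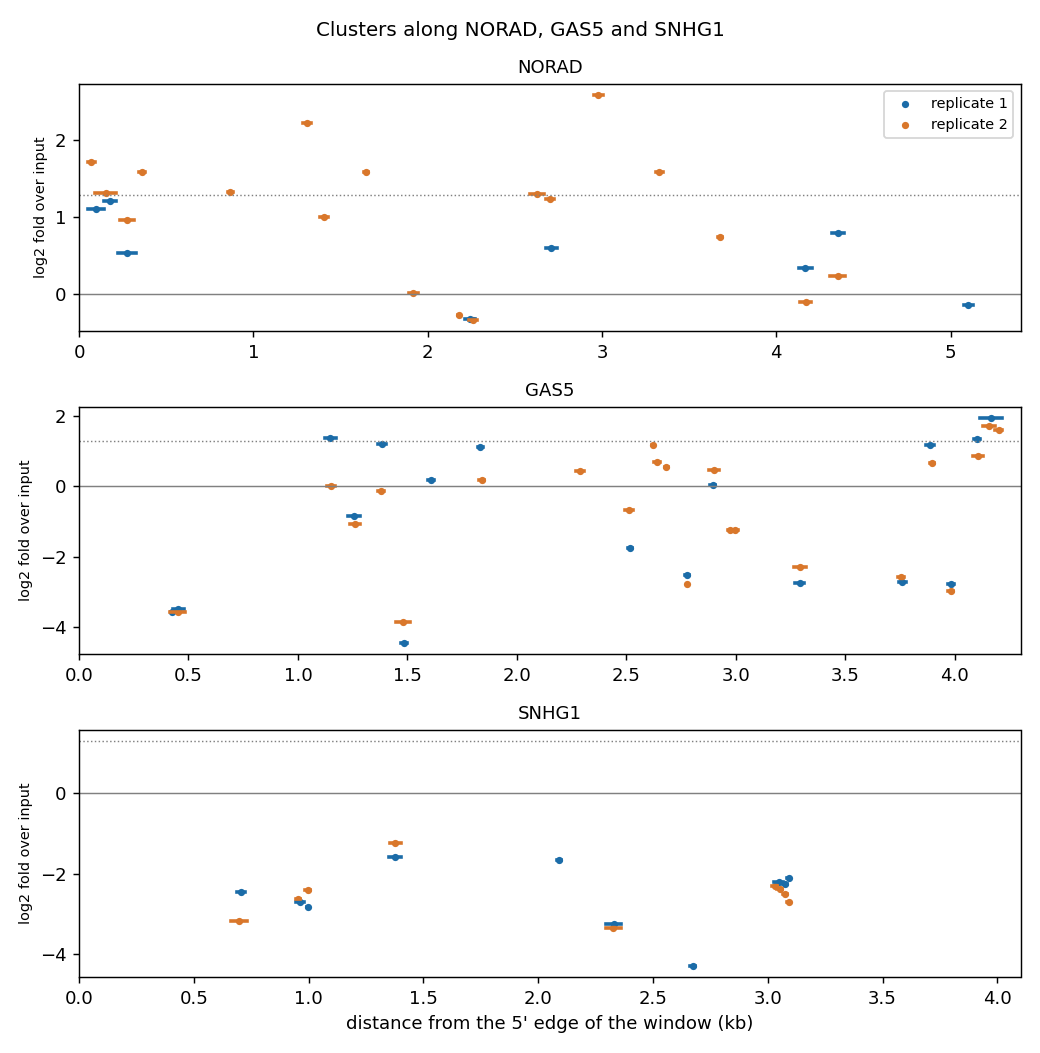
Log2 fold of each cluster (vertical axis) against its distance from the 5′ edge of the window in kb (horizontal axis) for NORAD, GAS5 and SNHG1, in blue for replicate 1 and orange for replicate 2, with bars spanning the cluster width. The solid line is the input level and the dotted line the median of all clusters (mean of both replicates). GAS5 alternates between values down to −4.44 and up to 1.94, while every SNHG1 cluster lies below input.

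NEAT1, the paraspeckle scaffold, had the most clusters of the 5 RNAs, with medians of 2.16-fold and 1.73-fold over input. Above-input values were found in 79 of 85 clusters of replicate 1 and 71 of 83 of replicate 2, with upper values of 2.23 and 2.22. These counts are near the 88.4% and 88.8% of all clusters above input. Under the 2-fold rule it had 47 clusters (55.3%) in replicate 1 and 35 (42.2%) in replicate 2, against 14.0% and 13.7% of all clusters. The −log10 p depends on the reads behind a cluster, which are unknown, and their part in this share was not tested. Clusters above the median of all clusters numbered 37 of 85 and 19 of 83.

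Folds varied along NEAT1, and several parts were high or low in both replicates. With the window cut into 10 parts of 2.29 kb, the mean log2 fold of the first part was 0.38 in replicate 1 and −0.03 in replicate 2. It was 1.43 and 1.17 in the third part and 1.47 and 1.25 in the sixth, then 0.06 and −0.03 in the ninth and 1.16 and 1.01 in the last. The first part thus stood lower than the third in both replicates, and the ninth lower than the last, although the ninth held only 4 and 5 clusters. Means of the second part were 1.03 and 0.46, and those of the seventh 1.09 and 0.59. The fifth part held clusters in replicate 2 alone, with a mean of 0.73, and the eighth in replicate 1 alone, with 0.26. The short form of NEAT1 shares its 5′ part with the long form, so fragments there can come from either.

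The highest pairs of NEAT1 adjoined each other in the sixth part. At chromosome 11, 65203627 to 65203665, the log2 folds were 2.23 and 2.22 (2.23 ± 0.006, SD, n = 2), at 65203666 to 65203793 they were 1.94 and 2.00, and at 65203542 to 65203626 they were 2.16 and 1.81. The −log10 p of the second of these was 34.2 and 34.7, the highest in NEAT1. The lowest pairs were at 65209612 to 65209672, with −1.42 and −2.05, at 65208811 to 65208868, with −1.16 and −1.04, and near the 5′ end at 65190644 to 65190756, with −0.57 and −1.05.

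MALAT1, the nuclear speckle RNA, had folds on both sides of input, none as high as 2-fold. Clusters below input made up 28 of 55 (50.9%) in replicate 1 and 51 of 56 (91.1%) in replicate 2, against 11.6% and 11.2% of all clusters. Its highest log2 folds were 0.95 and 0.44, so no cluster reached 2-fold, and no cluster was above the median of all clusters. In replicate 1, 9 clusters had a −log10 p of at least 3, up to 8.95, and in replicate 2 none did, with 2.08 as the highest. The share of all clusters that reach this −log10 p at any fold was not computed, so these counts cannot be called many or few. Of the 5201 runs with at least 8 clusters in each replicate, 49 (0.942%) had lower medians than MALAT1 in both.

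Along MALAT1 the folds were lower towards the 3′ end. With the window in 10 parts of 0.880 kb, the first part had no cluster in either replicate. The mean log2 fold was 0.57 and 0.04 in the third part, the highest in both replicates. It was −0.32 and −0.85 in the fifth, −0.41 and −1.07 in the sixth and −0.23 and −0.58 in the seventh. The fall was thus not steady, since the seventh part stood above the fifth and sixth in both replicates. The mean was −0.75 and −1.09 in the ninth part and −1.23 and −1.47 in the last. The last part held 2 clusters in each replicate. Across clusters, Spearman's rho of log2 fold with position was −0.74 (55 clusters) and −0.67 (56 clusters), given as a description, since neighbouring clusters share fragments and library. In NEAT1 the same measure was 0.29 and 0.39 over 85 and 83 clusters.

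The highest pairs of MALAT1 lay close together in the third part and the start of the next, at chromosome 11, 65267807 to 65267816, with 0.79 and 0.44, at 65267826 to 65267845, with 0.95 and 0.40, and at 65267846 to 65267881, with 0.60 and 0.20. The lowest was the cluster nearest the 3′ end, at 65273442 to 65273480, with −1.46 and −1.70 (−1.58 ± 0.17, SD, n = 2). It was followed by 65271146 to 65271178, with −1.22 and −1.31, and 65272238 to 65272276, with −1.19 and −1.18.

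**Figure D3:**
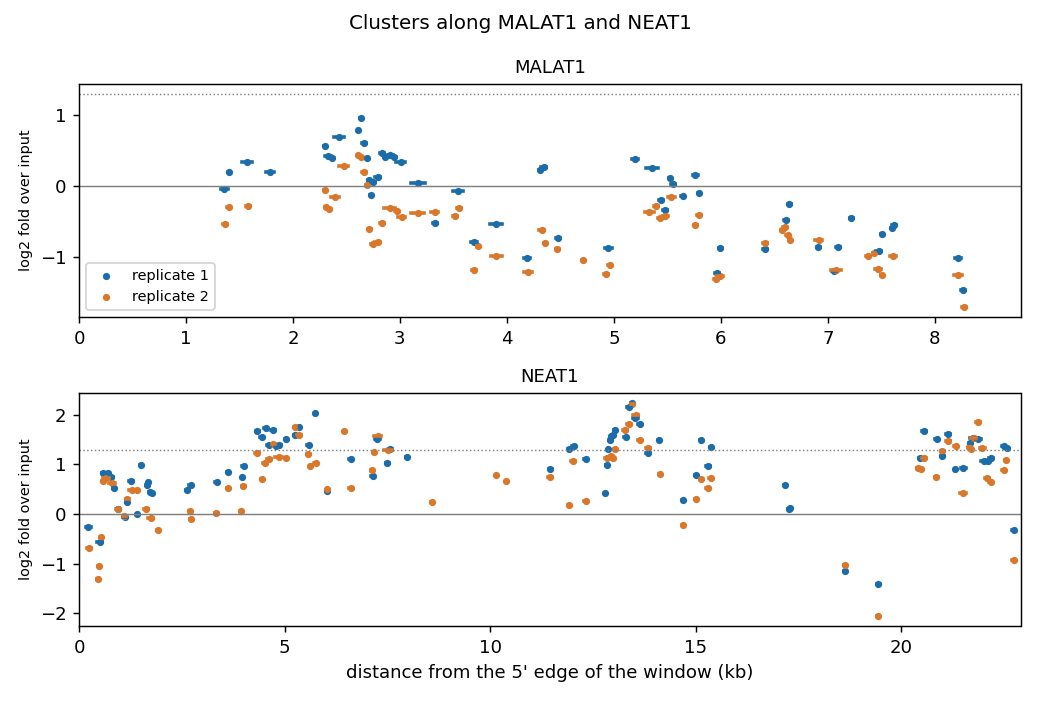
Log2 fold of each cluster (vertical axis) against its distance from the 5′ edge of the window in kb (horizontal axis) for MALAT1 and NEAT1, in blue for replicate 1 and orange for replicate 2, with bars spanning the cluster width. The solid line is the input level and the dotted line the median of all clusters (mean of both replicates). MALAT1 is lowest at its last cluster, at −1.46 and −1.70, without a steady fall, while NEAT1 peaks at 2.23 and 2.22 in its sixth part.

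Replicate 1 clusters with a partner in replicate 2 numbered 51 of 55 in MALAT1, 78 of 85 in NEAT1, 7 of 8 in NORAD, 16 of 17 in GAS5 and 8 of 10 in SNHG1, against 44.8% of all replicate 1 clusters. From replicate 2, clusters with a partner numbered 51 of 56 in MALAT1, 76 of 83 in NEAT1, 7 of 18 in NORAD, 16 of 22 in GAS5 and 9 of 9 in SNHG1, against 40.1% of all replicate 2 clusters. NORAD was thus near the share of all clusters when counted from replicate 2. Whether read depth accounts for these shares was not tested. In both nuclear RNAs replicate 2 gave the lower value at most pairs, in 47 of 51 pairs of MALAT1 and 60 of 78 of NEAT1. Some of these pairs share 1 replicate 2 cluster, and the share over all overlapping pairs of the lists was not computed. The medians of all clusters, 1.28 in replicate 1 and 1.30 in replicate 2, do not give a paired difference. The median difference, replicate 2 minus replicate 1, was −0.42 in MALAT1 and −0.29 in NEAT1. In GAS5 and SNHG1 it was −0.21 and −0.13, with 10 of 16 and 5 of 8 pairs lower in replicate 2. Pearson's r across pairs was 0.89 in MALAT1, 0.88 in NEAT1, 0.79 in NORAD, 0.96 in GAS5 and 0.78 in SNHG1 (51, 78, 7, 16 and 8 pairs), as a description of clusters that are not independent.

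**Figure D4:**
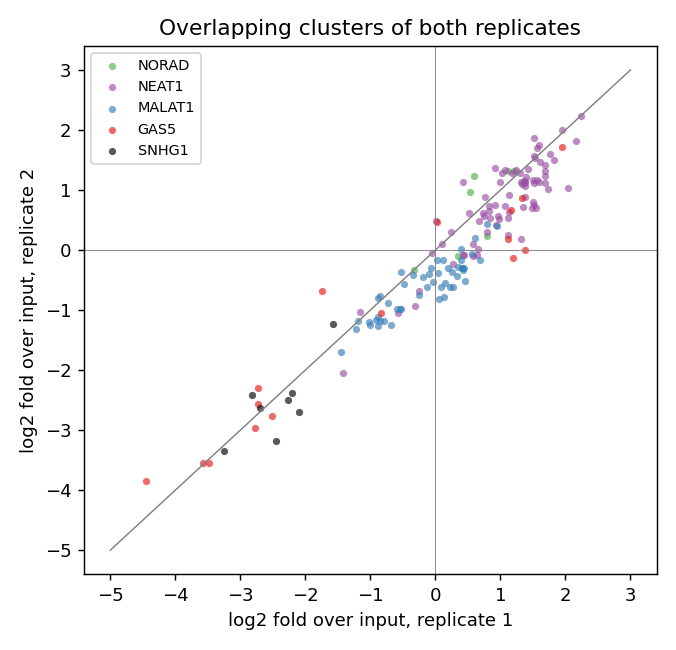
Log2 fold over input in replicate 2 (vertical axis) against replicate 1 (horizontal axis) for replicate 1 clusters that overlap a replicate 2 cluster, coloured by RNA, with the line of equality. GAS5 and SNHG1 each hold 7 pairs at −2 or lower in both replicates, and most MALAT1 and NEAT1 pairs lie below the line.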

How the data were processed

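LARP4 eCLIP in HEK293 cells was compared with size-matched input. Per the submitters' processing notes, UMI-tools 1.0.0, cutadapt 1.14, STAR 2.7.6a, SAMtools 1.6 and build hg19 were used. No source used here names the peak caller, its thresholds, the depth scaling or the way the lists were combined. The authors deposited, per interval, a −log10 p of enrichment (upper limit 400) and a log2 fold over input, in 1 list per replicate and 1 combined list. The lists have no header, so both meanings were read from the values. The inputs enter only as the denominator.

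Members were clusters overlapping each window on its strand, with starts made 1-based. Clusters of both replicates were paired by longest overlap. The 3 pairs with the highest lower value and the 3 with the lowest higher value in each RNA were named, and other single clusters were picked with values in view. Members and thresholds were chosen with earlier results of these data known. Exact permutation and sign-flip tests compared medians over replicates, and no other test was made, since clusters of 1 RNA are not replicates. Other long noncoding RNAs were listed for comparison but not analysed here, since that needs an hg19 annotation. The labels call the replicates biological and say no more of their cultures. Counting was tested on simulated data. Computations ran in Python 3.11.15 with SciPy 1.17.1 and pandas 2.3.3.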

Additional observations from a re-analysis of the deposited data

How the results depend on the processing

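Of 111 alternative values, 92 kept their sign and moved by less than the SD between replicates (counts by at most 1.5 times, tests by staying on the same side of the threshold), 16 moved further and 3 changed sign. Many of the 92 could not have moved further. Leaving out 1 of 2 replicates always moves their mean by less than their SD, and a stricter rule cannot change a count of 0. Stricter rules could only leave the count of enriched clusters at 0 in each RNA. These were a log2 fold of at least 4, a −log10 p of at least 5, and clusters wholly inside the window. The count also had to stay 0 at any p, since no cluster reached a log2 fold of 3. With the fold limit lowered to 2-fold it became 47 and 35 in NEAT1 (replicates 1 and 2), 1 and 3 in NORAD and 1 and 2 in GAS5, and it was still 0 in MALAT1 and SNHG1. With each list centred on the median of all its clusters, an alternative chosen after seeing the data, the means of medians were −1.60 in MALAT1, −0.34 in NEAT1, −0.38 in NORAD, −1.74 in GAS5 and −3.72 in SNHG1, so NEAT1 and NORAD changed sign. With clusters of at least 20 bases GAS5 stood at 0.021, on the other side of the input level, and a mean weighted by width gave −2.59 in SNHG1. With at least 50% of both clusters shared, 5 SNHG1 clusters recurred. With 5 bins in place of 10 the difference between the highest and lowest bin means was 1.07 in MALAT1, 0.94 in NEAT1, 0.98 in NORAD, 3.43 in GAS5 and 0.80 in SNHG1; fewer bins average more clusters. Without replicate 1 and without replicate 2 the medians were 0.79 and 1.11 in NEAT1, 1.27 and 0.56 in NORAD, −0.59 and −0.04 in MALAT1, −0.06 and −0.83 in GAS5 and −2.49 and −2.36 in SNHG1. With the replicate as a block, the smallest exact p among the 10 pairs of RNAs was 0.5, against 0.333 without it, and no call changed. Cluster depth is unknown, which limits every single fold.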
